A study of Mus musculus with 6 samples.

Results

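The Rab GTPases are the branch of the small GTPases that directs membrane traffic. Members were the genes whose symbol is Rab followed by a number and, at most, a letter and a digit, and 55 of the 20624 genes in the deposited table met that rule, each with 1 identifier. RNA sequencing was done on 3 Pkd1-/- samples and 3 wild type samples of mDCT15, a mouse cell line labelled as distal convoluted tubule cells. The Pkd1-/- line was made by CRISPR-Cas9 editing of Pkd1, the gene of polycystin 1, while the genotype field of its samples reads knockdown. Whether it derives from 1 clone was not given in the sources used here. Both lines grew in DMEM/F12 medium with fetal bovine serum, penicillin and streptomycin, and no treatment or time point was named for either. The value described for each gene is the authors' mean normalized count, the mean over all 6 samples of the reads of a gene divided by a size factor of each library. No value of a single sample was analysed here. The levels therefore carry no replicate error and pool Pkd1-/- with wild type cells, and no difference between the genotypes, or depth of a library, is given.

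A Rab protein switches between a GDP-bound form, held in the cytosol by a GDP dissociation inhibitor, and a GTP-bound form on a membrane, where it recruits effectors such as tethers and motor adaptors. Exchange factors load GTP, and prenyl groups added to cysteines at the end of the protein anchor it in the membrane. In kidney tubule cells, Rab proteins are known for endocytosis, delivery of transporters to the apical membrane, traffic to the primary cilium and release of extracellular vesicles, and polycystin 1 is itself a cargo of the route to the cilium.

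The coding sequences of the phosphate-binding loop, which holds the phosphates of the bound nucleotide, show what the members share that their names do not state. The loop was searched in the coding sequence as 8 codons, glycine, any 4 codons, glycine, lysine or arginine, and serine or threonine. It was found in 53 of the 55 members, and the 53 sequences were all different. Rab40b and Rab40c, which carry a SOCS box and act with ubiquitin ligases, did not match this pattern. A failed match at any of its fixed places gives this result, so it does not show that the loop is absent. The loops of 4 families of paralogs are printed from the GRCm39 genome, in capitals the last 3 codons (glycine, then lysine, then serine or threonine), for the families with the longest shared run of bases or the most repeated sequence, both described in what follows. All are coding exon sequence.
Rab1a: ggcgattctggggttGGAAAGTCC
Rab1b: ggtgactccggcgtgGGCAAGTCG
Rab5a: ggagagtctgctgttGGCAAATCA
Rab5b: ggagagtctgcagtgGGGAAGTCT
Rab5c: ggcgagtctgccgtgGGCAAGTCC
Rab7: ggggactctggtgttGGAAAGACC
Rab7b: ggtgcacttggcgtgGGAAAGACC
Rab11a: ggagattctggtgttGGAAAGAGT
Rab11b: ggggactcaggtgtaGGTAAGAGC
Rab25: ggcgagtcaggcgtgGGCAAGACC

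In GRCm39 coordinates, Rab1a occupies bases 20151096 to 20176924 of chromosome 11 (plus strand), and Rab1b bases 5149214 to 5157137 of chromosome 19 (minus strand). Rab5a occupies 53786241 to 53815975 of chromosome 17 (plus strand), Rab5b 128512885 to 128532251 of chromosome 10 (minus strand) and Rab5c 100603932 to 100629041 of chromosome 11 (minus strand). Rab7 occupies 87976083 to 88022295 of chromosome 6 (minus strand), and Rab7b 131616433 to 131643180 of chromosome 1 (plus strand). Rab11a occupies 64581321 to 64645054 of chromosome 9, Rab11b 33961458 to 33979504 of chromosome 17 and Rab25 88449335 to 88455618 of chromosome 3, all on the minus strand.

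Paralogs were alike in coding sequence but shared no long run of bases. Over the 20 pairs within a family, identity of the aligned coding sequences ranged from 59.6% for Rab7 and Rab7b to 78.5% for Rab6a and Rab6b. The longest run of identical bases in any pair was 38 bases, shared by Rab1a and Rab1b, and 0 of the 20 pairs shared a run of the 42 bases that a read spanned. The run is printed because it comes closest to the length of a read, and it carries no capitals.
Rab1a and Rab1b: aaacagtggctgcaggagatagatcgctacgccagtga
The second longest was the run of 35 bases in Rab5a and Rab5b.
Rab5a and Rab5b: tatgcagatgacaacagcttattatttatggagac

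All 55 coding sequences had a cysteine codon among the last 4 codons, where the prenyl groups are added. Within these 4 codons, 40 members had 2 cysteines and 15 had only the cysteine at the fourth place from the end. Rab8a, Rab11a, Rab13, Rab23 and Rab28 were among the 15. Codons before the last 4 were not searched, so these counts do not give the full number of cysteines at the end of the protein. The coding sequence had a median length of 648 bases. It was shortest in Rab22a, at 585 bases, and longest in Rab44, at 2178 bases.

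The levels of the 55 members ran from 0.694 for Rab3b to 3111 for Rab7 on the scale of the mean normalized count, and 46 members (83.6%) reached a mean of 10. Of the 13862 protein-coding genes in the table, 85.3% reached 10. The median over the members was 435.7, beside 473.7 over protein-coding genes and 104.5 over all genes. Together the Rab genes held 0.270% of the summed mean normalized counts (95% Wilson interval 0.269% to 0.271%, counting error only), and the 10 highest members held 51.9% of the sum over the members. A mean of 1000 was reached by 21 members, and 9 stayed under 10. Each interval in parentheses is a 95% exact Poisson interval for about 6 times the mean, divided by 6. It is approximate, since the size factors were not analysed here, and covers counting error only. The interval of a ratio comes from the exact binomial interval of its pair of counts. It leaves out the choice of length, and with another length some ratios moved beyond their interval. Rab3c, Rab9b, Rab39b, Rab41 and Rab42 were not analysed here.

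**Figure D1:**
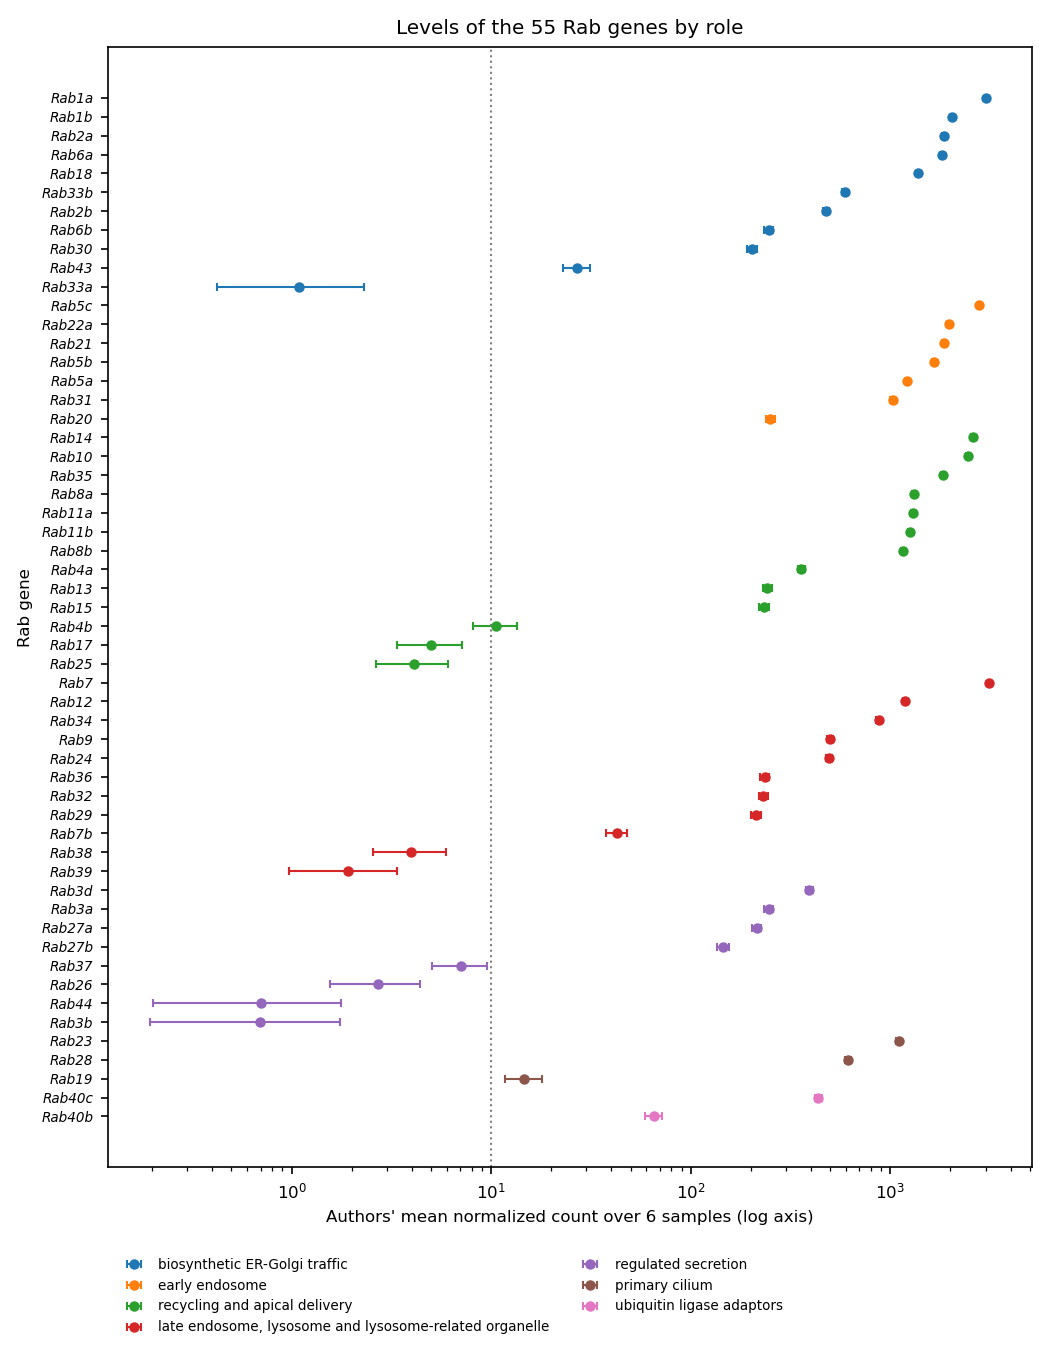
The authors' mean normalized count over 6 samples (log axis) of each Rab gene, grouped and coloured by role; points are means, bars are 95% exact Poisson intervals for counting error, and the dotted line marks a mean of 10. The points run from 0.694 for Rab3b to 3111 for Rab7, and 9 genes lie left of the line.

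Rab7, which brings late endosomes to lysosomes, had the highest mean normalized count, 3111 (3067 to 3156). Rab1a, for transport from the endoplasmic reticulum to the Golgi, followed at 3011 (2967 to 3055), and Rab5c of the early endosome at 2779 (2737 to 2821). Rab14, which links endosomes with the trans-Golgi network, had 2583 and Rab10, for delivery to the plasma membrane, 2436. Rab1b had 2046, Rab22a 1966, Rab2a 1847, Rab21 1846 and Rab35 1825. Rab22a and Rab21 act at early endosomes, Rab2a at the Golgi and Rab35 at the plasma membrane. The order by count is not an order of transcript levels, because a long transcript gives more reads.

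Levels were compared between genes per kilobase of annotated exons. On this scale, Rab1b had 669.2 per kilobase (657 to 681) and Rab1a 666 per kilobase (657 to 676), and their intervals overlapped. Rab10 had 623 per kilobase, Rab5c 508 (501 to 516), Rab7 491 (484 to 498) and Rab35 425. Rab6a and Rab2a of the Golgi were level at 385 per kilobase each, Rab21 had 359.8 and Rab5b 344. Rab14, at rank 4 by count, was at rank 19 per kilobase, at 169, and its annotated exons span 15.3 kb. Rab14 had 469 per kilobase of its longest transcript and 3987 per kilobase of coding sequence. Per kilobase of coding sequence the leading members were Rab7 at 4986 and Rab1a at 4873, so the order at the top depends on the length. The median over the members was 81.8 per kilobase, beside 72.7 over protein-coding genes, and 29 of the 55 members lay above the value of protein-coding genes. Per kilobase of the longest transcript the members' median was 124.

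At the other end, Rab3b and Rab44 had the lowest mean normalized counts, at 0.694 (0.195 to 1.75) and 0.706 (0.202 to 1.76). Rab33a, a Golgi member, had 1.09 (0.423 to 2.30), Rab39 had 1.92 (0.973 to 3.39) and Rab26, of secretory granules, 2.71 (1.55 to 4.38). Per kilobase, Rab44 had 0.137 (0.0390 to 0.341), Rab3b 0.184 (0.0518 to 0.463) and Rab33a 0.391 (0.151 to 0.824), with intervals that overlapped. Rab25 and Rab17, known from the apical recycling system of epithelia, had mean normalized counts of 4.10 and 4.98.

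By role, the biosynthetic members of the ER-Golgi route held 30.9% of the summed level per kilobase of the Rab genes with 11 genes, led by Rab1b. The members of recycling and apical delivery held 26.0% with 13 genes, led by Rab10, and those of the early endosome 21.9% with 7 genes, led by Rab5c. The late endosome and lysosome members held 15.6% with 11 genes, led by Rab7. Regulated secretion held 2.46% with 8 genes, the cilium members Rab19, Rab23 and Rab28 held 1.98%, and Rab40b with Rab40c held 1.12%. With the coding sequence as the length, the order of the 2 leading roles turned around, with 28.7% for recycling and apical delivery and 26.4% for the ER-Golgi route, and the cilium members held 3.52%. All 7 early endosome genes had a mean of at least 10, whereas 4 of the 8 genes of regulated secretion were under 10.

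Among the 7 roles, the early endosome list had the highest median level per kilobase of annotated exons, 197, the value of Rab22a, which works in early endosomes. Rab5a and Rab5b, which with Rab5c drive fusion of early endosomes, had mean normalized counts of 1205 and 1646. Rab31, a relative of Rab22a, had 1026 by mean, and Rab20, the lowest of the list, 250.2. Per kilobase, Rab5c stood 2.92-fold (2.84 to 3.00) above Rab5a and 1.48-fold (1.44 to 1.52) above Rab5b. Per window found once in the genome, the order of Rab5c and Rab5b turned around and Rab5c stood at 0.897 of Rab5b. On that scale Rab5c stood 2.32-fold above Rab5a, and 2.30-fold per kilobase of coding sequence. Rab22a stood 1.23-fold (1.19 to 1.27) above Rab31, at 0.955 of it per kilobase of the longest transcript and 1.93-fold above it per kilobase of coding sequence.

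In the ER-Golgi list, Rab2a stood 4.51-fold (4.33 to 4.70) above Rab2b per kilobase, and Rab6a 12.0-fold (11.4 to 12.7) above Rab6b, or 7.39-fold per kilobase of coding sequence. Rab33b, a Golgi member that binds the autophagy protein Atg16l1, stood 426-fold (194 to 995) above Rab33a. The ratio of Rab1b to Rab1a per kilobase was 1.00 (0.981 to 1.03), an interval that includes 1, and with the coding sequence as the length it was 0.693. Rab18, of lipid droplets and the endoplasmic reticulum, had a mean normalized count of 1382, Rab30 had 204 and Rab43 26.9.

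Among the recycling members, Rab11a and Rab11b, which return cargo from the recycling endosome, were close. Per kilobase, Rab11b had 183 and Rab11a 142, a ratio of 1.29 (1.25 to 1.33), while their relative Rab25 had 2.31, so that Rab11b stood 79.0-fold (52.6 to 120.1) above it. With the coding sequence as the length, that ratio was 298. Rab8b stood 1.13-fold (1.09 to 1.17) above Rab8a, the GTPase of transport to the apical membrane and the cilium. The orders of Rab11b and Rab11a and of Rab8b and Rab8a turned around with the longest transcript as the length, where Rab11b stood at 0.650 of Rab11a and Rab8b at 0.822 of Rab8a. Rab4a, for fast recycling, stood 11.8-fold (9.21 to 15.4) above Rab4b per kilobase of exons and 33.2-fold per kilobase of coding sequence. Rab13 and Rab15 had mean normalized counts of 242 and 233, and Rab13 acts at tight junctions.

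In the late endosome and lysosome list, Rab7 stood 57.0-fold (50.4 to 64.8) above Rab7b per kilobase, and Rab32, a GTPase of lysosome-related organelles and mitochondria, 71.6-fold (47.6 to 111) above Rab38. The ratio of Rab7 to Rab7b was 81.4 by longest transcript, 70.3 by coding sequence and 71.3 per window found once in the genome. Rab12 had a mean normalized count of 1183, Rab34 had 875, Rab9, which returns receptors from late endosomes to the Golgi, 499.8, and Rab24 had 494. Rab36 had 235 and Rab29, a partner of the kinase Lrrk2, 212. In regulated secretion, Rab27a stood 3.72-fold (3.41 to 4.06) above Rab27b per kilobase, and 1.46-fold with the coding sequence as the length. Rab3a stood 1.24-fold (1.16 to 1.33) above Rab3d, an order that the coding sequence as the length turned around to 0.625, and 444-fold (180.3 to 1699.8) above Rab3b. The last ratio rests on about 4 reads of Rab3b over all samples. Rab40c stood 5.62-fold (5.05 to 6.27) above Rab40b.

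**Figure D2:**
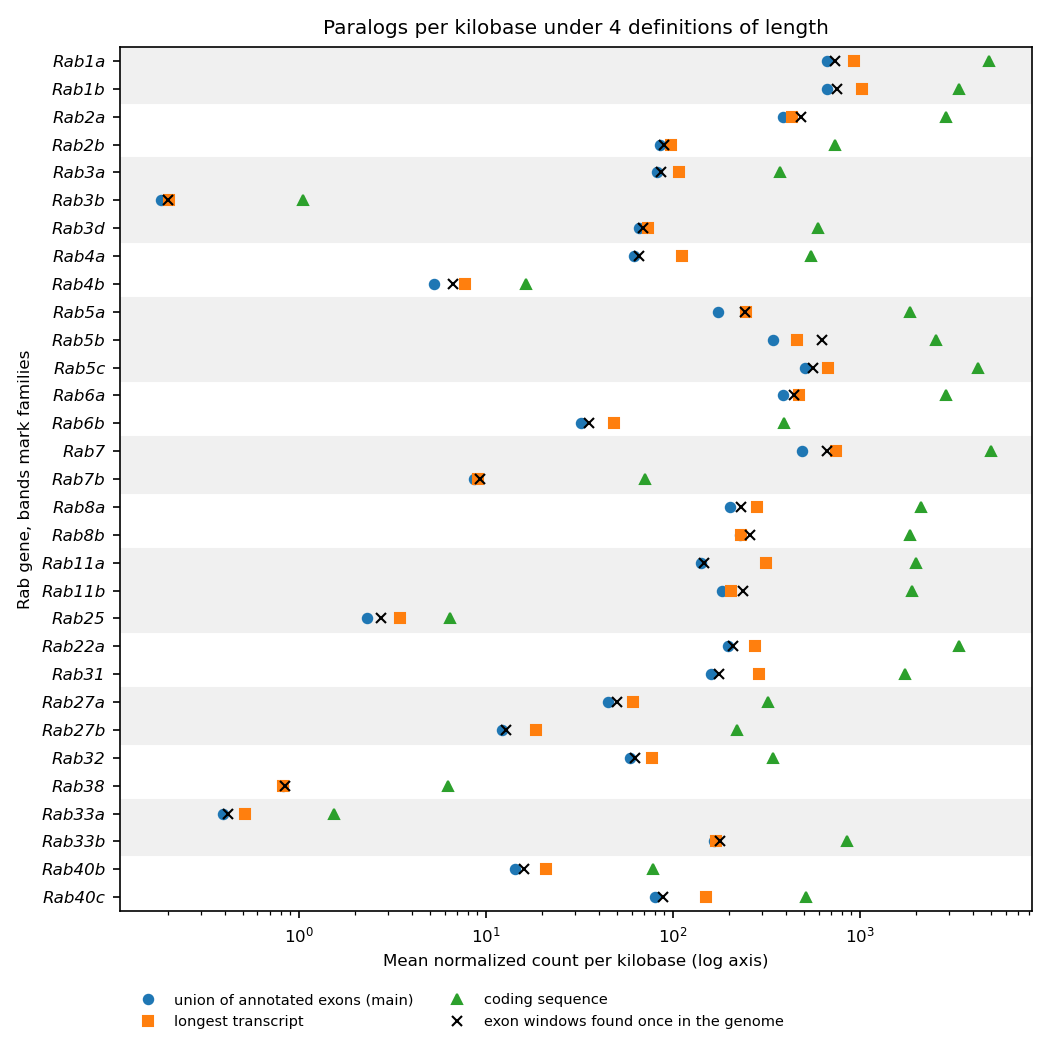
Mean normalized count per kilobase (log axis) of the members of each family of paralogs under 4 definitions of length; bands separate families, and the points of a gene differ only in the length divided by. Rab1a and Rab1b lie at 666 and 669.2 by union of exons, while Rab3b, Rab33a, Rab38 and Rab25 lie far to the left of their relatives under each length.

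The members known for release of extracellular vesicles had 9 genes in the table, each with a mean of at least 10, and held 18.6% of the summed Rab level per kilobase. This list overlaps the roles, so its share cannot be added to theirs. Rab7 led them at 491 per kilobase, followed by Rab35, which docks vesicles at the plasma membrane, at 425. Rab5a, Rab31 and Rab11a had 174, 160.3 and 142, and Rab2b had 85.3. The pair most often tied to the release of exosomes was lower on the same scale, with Rab27a at 45.1 and Rab27b at 12.1, and Rab9 was at 34.0. By longest transcript the order of Rab5a, Rab31 and Rab11a turned around, at 245, 288 and 315, and by coding sequence Rab9, at 825, passed Rab2b at 732 and Rab27a at 321. Rab7 and Rab35 were the highest of the list, and Rab27b the lowest, under all 4 lengths. Rab27a and Rab27b had mean normalized counts of 214 and 145, with intervals of 202 to 226 and 135 to 155.

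The members known at the primary cilium also had 9 genes in the table, and all reached a mean of 10. Rab10 led at 623 per kilobase, followed by Rab34, needed to form the ciliary vesicle, at 271, Rab8b at 227 and Rab8a at 201. Rab11a had 142 and Rab23, a regulator of Hedgehog signalling, 114. Rab29 had 68.8, Rab28 had 47.1 and Rab19, at 5.88 (4.72 to 7.25), was the lowest. By longest transcript, Rab11a, at 315, passed Rab8a at 282 and Rab8b at 232, and Rab28, at 124, passed Rab29 at 77.8. By coding sequence, Rab34, at 1122, was below Rab8a at 2111. Rab10 was the highest and Rab19 the lowest under all 4 lengths. Together the 9 genes held 20.2% of the summed Rab level per kilobase. This list overlaps the roles and the vesicle list, so its share cannot be added to theirs. In the shares by role, only Rab19, Rab23 and Rab28 were counted under the cilium, and the other genes of this list under other roles.

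Whether a read could be placed differed among members. The share of 42-base windows of the annotated exons that occur once in the GRCm39 genome had a median of 99.0%, and in 46 of the 55 members it was at least 95%. It was 58.0% for Rab5b, 75.9% for Rab5a, 79.8% for Rab11b, 82.3% for Rab7, 85.0% for Rab9, 89.5% for Rab2a and 89.9% for Rab34. In the spliced coding sequence, the share of windows with no copy outside the gene was 6.82% for Rab11b, 27.7% for Rab5b, 43.4% for Rab7 and 59.2% for Rab8b. With Rab9, Rab2a, Rab6a and Rab5a, at 74.3%, 76.6%, 88.7% and 89.5%, these were the 8 members with a coding window copied elsewhere, and the other 47 members had none. The counts of these 8 members are uncertain by reads that match a copy elsewhere, although the mate of a read can place the pair. The same holds for members whose repeated windows lie outside the coding sequence, such as Rab34. Processed pseudogenes named after 3 of the 8 members had their own counts, 13.1 for Rab7-ps1, 25.6 for Rab11b-ps2 and 8.32 for Rab5a-ps. Divided by the once-only windows in place of all exons, Rab5b had 625 per 1000 windows and Rab5c 561, and the order of this pair turned around.

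**Figure D3:**
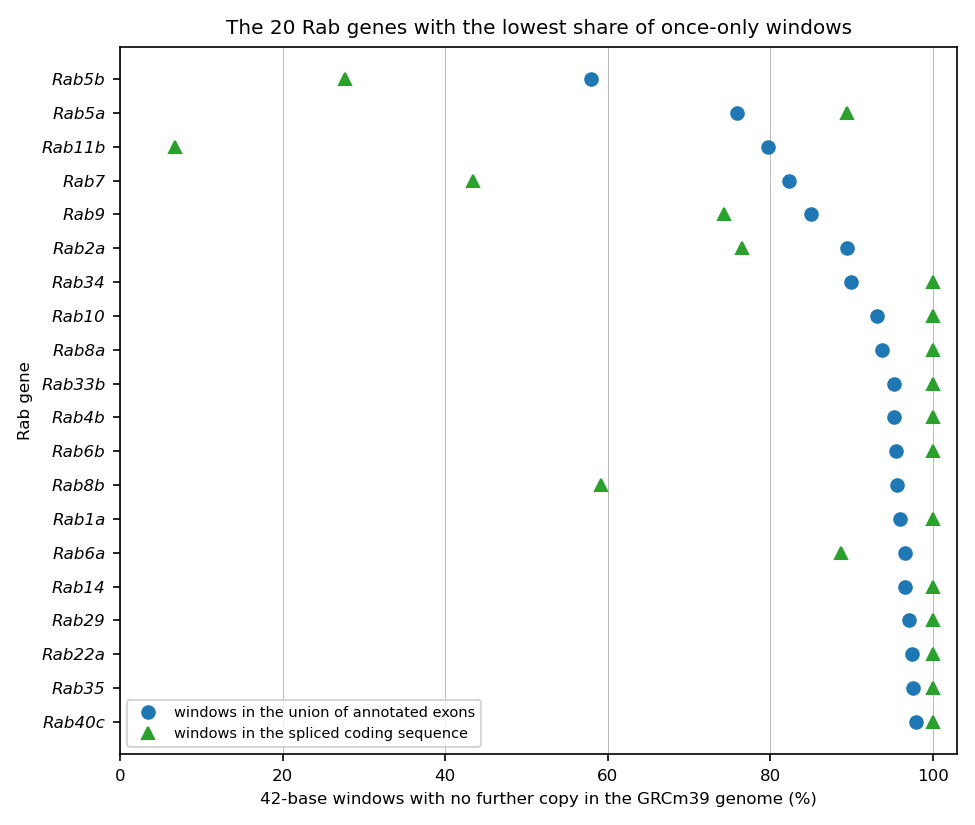
Share of 42-base windows with no further copy in the GRCm39 genome, in percent, for the 20 Rab genes with the lowest share over annotated exons; circles are windows in the union of exons and triangles are windows in the spliced coding sequence. Rab5b is lowest over exons at 58.0%, and Rab11b is lowest over coding sequence at 6.82%.

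Exons also overlapped other genes of the table in 17 members, and in 11 of them more than 10% of the exon bases were shared. On the same strand, Rab43 shared 71.1% of its exon bases with Gm45140, and Rab26 shared 17.8% with Traf7. A read there cannot be assigned by its strand. Traf7 had a mean normalized count of 2348 and Gm45140 0.986, beside 2.71 for Rab26 and 26.9 for Rab43. On the opposite strand, Rab2b shared 44.2% with Gm43766, Rab24 shared 37.5% with Prelid1, Rab20 shared 35.3% with E230013L22Rik, Rab1a shared 34.4% with Cep68, and Rab10 shared 21.5% with the antisense gene Rab10os. Prelid1 had a mean normalized count of 2185, beside 494 for Rab24, and Cep68 had 1334, beside 3011 for Rab1a. Gm43766 had 0.721, beside 477 for Rab2b, and E230013L22Rik had 15.8, beside 250.2 for Rab20. Also on the opposite strand, Rab2b shared 6.27% with Tox4, at 1500, and Rab3a shared 18.0% with Mpv17l2, at 418, beside 246 for Rab3a. Rab33b shared 18.7% with Gm38160, at 6.44, beside 589 for Rab33b. Rab6a shared 15.6% with Mrpl48, at 270, beside 1815, and Rab4a shared 14.2% with Ccsap, at 232, beside 358. Rab10os had 246, beside 2436 for Rab10. Reads were counted with the default parameters of HTSeq-count, which count by strand, and whether that setting fits the strand the library kit marks was not given in the sources used here. The counts of members that share exon bases on either strand are therefore uncertain.

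The regulators and effectors of the Rab cycle were in the same range per kilobase. The 8 genes for GDP dissociation inhibition, escort and prenylation had a median of 115 per kilobase, and Rabggtb, a subunit of the enzyme that adds the prenyl groups, had 278. Of 33 exchange factors, 32 were in the table and had a median of 79.2, led by Rab3ip, the exchange factor of Rab8, at 413. Of 31 effectors, 26 were in the table, with a median of 88.4, led by Exoc6 at 282. Sytl3, Sytl5, Mlph, Myrip and Rph3a, most of them effectors of Rab27 or Rab3, and the exchange factor Dennd1c were not analysed here. Among effectors known to bind Rab27, Sytl2 had 249.7 per kilobase, Rph3al, which also binds Rab3, had 32.6, Sytl4 had 23.3, Sytl1 had 4.79, Exph5 had 1.87 and Unc13d 1.26. All 8 genes of the first list and the 32 exchange factors in the table had a mean of at least 10, as did 25 of the 26 effectors in the table. The exception was Unc13d, with a mean of 9.12 (6.86 to 11.9).

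**Figure D4:**
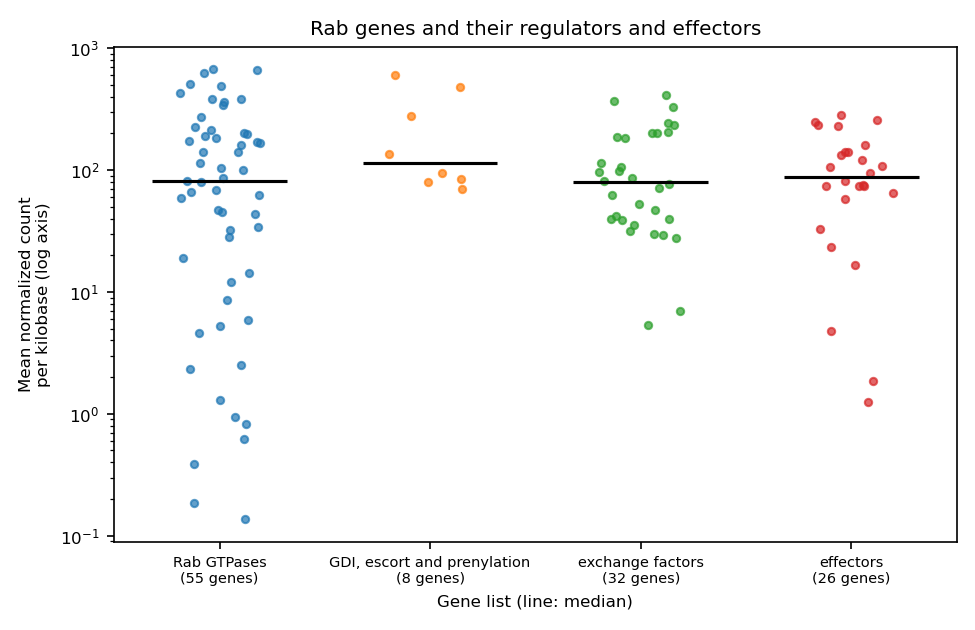
Mean normalized count per kilobase of annotated exons (log axis) for the 55 Rab genes and 3 lists of genes of the Rab cycle; each point is a gene, placed at random within its column, and the lines are medians. The medians lie between 79.2 and 115, and the Rab genes reach the lowest values.

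The label of the cells was checked against markers over the same 6 samples. Of 13 genes listed as markers of the distal convoluted tubule, not all of them particular to it, 8 were in the table. All 8 had a mean of at least 10, as did 85.3% of the protein-coding genes in the table. Their summed mean was 10689, of which Wnk1, a kinase also found in many other cells, made up 8468. Per kilobase, Wnk1 had 359, Cnnm2 122, Wnk4 94.5, Kcnj16 78.0 and Stk39 57.9. Kcnj10, a potassium channel of this segment, was at 7.07 per kilobase, Egf at 3.95 and Trpm6, its magnesium channel, at 3.71, with mean normalized counts of 38.3, 48.3 and 29.6. Slc12a3, the sodium chloride cotransporter that defines this segment, and Pvalb, Calb1, Klk1 and Umod were not analysed here. Pax8 of the kidney epithelium had 4905 and Epcam 115. Krt8, a keratin of simple epithelia, had 0.980, and Cdh1 and Krt18 were not analysed here. Of the 4 proximal tubule markers, Lrp2, the receptor megalin, had 8826, Cubn 169, Slc5a2 2.77 and Slc34a1 2.04. Of the 3 fibroblast markers, Vim had 17450, Col1a1 201 and Pdgfrb 4.48. Ptprc of leukocytes had 5.36, Pecam1 of endothelium 4.68 and Aqp3 of principal cells 1.95, and the markers of the thick ascending limb, intercalated cells and podocytes were not analysed here. The part of these cell states in the Rab levels was not tested. Pkd1 had 3175 over all 6 samples, a pooled value that checks neither group.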

How the data were processed

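RNA was depleted of ribosomal RNA and sequenced in 3 Pkd1-/- and 3 wild type samples, grouped by their titles. The authors trimmed reads with Trim Galore 0.4.5, mapped them with STAR 2.7.5a to GRCm39, counted them per gene with HTSeq 0.11.0 (default parameters) and used DESeq2 1.22.0 in R 3.5.3, per the submitters' processing notes and the study's methods. The deposited mean normalized count is a signal, the mean over all 6 samples of counts divided by size factors, with no length correction. The methods state a minimum of 5 counts per sample and gene, and the lowest mean in the table is 0.618. The other columns, the authors' log2 fold changes, standard errors, statistics and p-values of Pkd1-/- against wild type, hold their own comparison and were not used, so the count test planned for single samples was not run. The members and lists were chosen with earlier results of these data known. Genes named were the 10 highest and 5 lowest by mean, the members of families of paralogs and those of the vesicle and cilium lists; Rab12, Rab13, Rab15, Rab17, Rab18, Rab20, Rab24, Rab30, Rab36, Rab43 and the genes with overlapping exons were chosen after their values were seen.

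Lengths came from GENCODE vM39, in which 20122 of the 20624 identifiers (97.6%) and all 55 members were found, while the authors used an Ensembl annotation. The length is the union of annotated exons. Windows of 42 bases, the length of a read, were counted in the genome on both strands, and for spliced coding sequence those within the gene's own span were taken off. Coding sequences were aligned globally with match 1, mismatch -1, gap opening -5 and gap extension -1. Intervals and windows were tested on simulated data. Scripts ran in Python 3.11.15 with Biopython 1.88, scipy 1.17.1, pandas 2.3.3, numpy 2.4.6 and matplotlib 3.10.9. The table has 0 per-sample columns left without a match. Other minimum counts, denominators and lengths were tried.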

Additional observations from a re-analysis of the deposited data

How the results depend on the processing

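No paired analysis was possible because no values of single samples were analysed, and the planned replicate block, size factors and omission of replicates were not run for the same reason. The number of Rab genes reaching the minimum mean was 46 at a minimum of 10, 53 at 1 and 41 at 100; summing repeated symbols left it at 46. The share of the summed counts was 0.270%, 0.338% without the 100 highest genes and, with protein-coding genes only (chosen after seeing the data), 0.301%. The median per kilobase, 81.8 by union of exons, was 124 by longest transcript, 595 by coding sequence, 128 over members with a mean of at least 10 and, chosen after seeing the data, 88.9 per 1000 once-only windows; each follows from the length or the genes counted. Of 17 ratios within families, 11 kept the same leading member under all 4 lengths. The log2 ratios that turned around were, by coding sequence, Rab1b to Rab1a at -0.53, Rab3a to Rab3d at -0.68, Rab8b to Rab8a at -0.19 and Rab11b to Rab11a at -0.071; by longest transcript, Rab8b to Rab8a at -0.28, Rab11b to Rab11a at -0.62 and Rab22a to Rab31 at -0.066; and, by once-only windows, Rab5c to Rab5b at -0.16. Role shares moved by at most 4.52 percentage points, and by coding sequence recycling and apical delivery (28.7%) passed the ER-Golgi route (26.4%). About 4 reads over all samples lie behind Rab3b and Rab44 each, which gives them wide counting intervals.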
